A study of Mus musculus with 12 samples.

Results

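Interferon-stimulated genes are those whose transcription rises when a cell senses interferon. The list taken here had 37 of them, chosen by name: antiviral effectors, RNA sensors, transcription factors, guanylate-binding and immunity-related GTPases, genes of antigen presentation and chemokines, and a few others. A member was measured where a probe set, a group of short oligonucleotides for 1 transcript, named it alone in the platform annotation, under its current or an older symbol. That held for 35 of the 37 through 58 probe sets, out of 18194 genes and 45101 probe sets on the array. Isg15 had only a probe set that also named Gm9706, and Ifi44 had none with its name, so neither was analysed here. The probe set with the highest mean signal stood for a gene with several, as 14 members had.

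Whole blood RNA of 12 C57Bl/10 mice aged 3 months was hybridized to Affymetrix Mouse 430 2.0 arrays, with 1 mouse per array and 4 mice per group. NX mice breathed 21% oxygen for 14 days, CH mice spent 14 days in normobaric chronic hypoxia, in which oxygen was varied from 21% down to 8% and stood at 8% at harvest, and REC mice had the same 14 days of hypoxia and then 14 days at 21%. One label field calls the CH mice normoxic, whereas their titles and treatment give hypoxia, which was followed. No group carried a transgene or a deletion, and blood came from the vena cava under ketamine and xylazine in all of them. The design asks what 14 days of hypoxia did to blood transcripts and what was left after recovery. The schedule of REC mice ran 14 days longer than that of CH mice, so that recovery and this added time cannot be told apart.

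Type I interferons bind the receptor pair Ifnar1 and Ifnar2, and interferon gamma binds Ifngr1 and Ifngr2. Janus kinases then act on transcription factors, Stat2 and Irf9 among them, and the promoters of the target genes carry the interferon-stimulated response element or the gamma-activated site. Most leukocytes keep some of these genes on at rest, and the products block viral entry, degrade viral RNA, sense it or present its peptides. Rsad2 encodes viperin, a radical SAM enzyme that turns CTP into a chain-terminating nucleotide. Isg20 encodes an exonuclease that degrades RNA, and Oas3 encodes an oligoadenylate synthetase whose product switches on RNase L.

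The promoters of 3 members that were higher in CH than in NX and of 2 that were lower are shown, to set side by side what lies before the start sites of members that moved in opposite directions. Each is the 300 bases from 250 before to 50 after the start site, 5′ to 3′ on the gene's strand, from RefSeq on GRCm38.p6. Capitals mark matches on either strand to the core of the interferon-stimulated response element, GAAANNGAAA, or in Isg20 to the gamma-activated site, TTCNNNGAA. The windows lie at chr12:26456403-26456702 on the minus strand for Rsad2, at chr7:78913174-78913473 on the plus strand for the first of 3 starts of Isg20, at chr5:120777610-120777909 on the minus strand for Oas3, at chr3:142559794-142560093 on the plus strand for Gbp3, and at chr19:34583279-34583578 on the plus strand for Ifit3.
Rsad2: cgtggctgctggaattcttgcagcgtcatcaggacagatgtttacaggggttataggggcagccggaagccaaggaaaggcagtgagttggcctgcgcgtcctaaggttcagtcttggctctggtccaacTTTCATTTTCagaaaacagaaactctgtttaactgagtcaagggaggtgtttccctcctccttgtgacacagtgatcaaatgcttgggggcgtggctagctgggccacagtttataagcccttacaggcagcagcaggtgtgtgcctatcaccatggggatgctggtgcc
Isg20: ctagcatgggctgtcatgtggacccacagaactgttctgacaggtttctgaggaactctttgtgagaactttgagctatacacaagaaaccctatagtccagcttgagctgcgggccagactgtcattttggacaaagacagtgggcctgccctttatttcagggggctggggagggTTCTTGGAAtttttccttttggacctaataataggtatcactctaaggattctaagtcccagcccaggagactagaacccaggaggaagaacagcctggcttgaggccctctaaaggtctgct
Oas3: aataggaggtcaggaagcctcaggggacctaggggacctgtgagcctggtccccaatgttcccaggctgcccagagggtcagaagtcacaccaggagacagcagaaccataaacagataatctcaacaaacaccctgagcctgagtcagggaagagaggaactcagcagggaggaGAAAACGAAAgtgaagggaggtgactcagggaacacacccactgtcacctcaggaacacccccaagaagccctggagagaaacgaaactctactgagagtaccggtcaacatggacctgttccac
Gbp3: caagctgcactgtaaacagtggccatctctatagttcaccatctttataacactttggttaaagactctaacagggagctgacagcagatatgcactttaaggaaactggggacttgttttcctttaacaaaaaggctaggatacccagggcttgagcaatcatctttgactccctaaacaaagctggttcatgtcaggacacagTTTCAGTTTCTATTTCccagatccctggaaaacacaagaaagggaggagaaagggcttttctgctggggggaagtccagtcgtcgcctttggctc
Ifit3: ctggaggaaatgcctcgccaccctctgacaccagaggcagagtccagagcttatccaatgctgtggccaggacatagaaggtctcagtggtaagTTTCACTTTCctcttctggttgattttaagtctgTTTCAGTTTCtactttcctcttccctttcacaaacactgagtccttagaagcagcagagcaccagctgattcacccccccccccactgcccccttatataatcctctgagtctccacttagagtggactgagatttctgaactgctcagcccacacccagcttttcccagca

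The match in Rsad2 began 120 bases before the start site and that in Oas3 75 bases before it. Isg20 had no response element core in its window, and its gamma-activated site match began 73 bases before the start. Gbp3 had a pair of overlapping cores, the first 45 bases before the start, and Ifit3 had a pair that did not overlap, at 156 and 122 bases before it. Of the 31 listed members with a window in the table, 17 had a response element core (54.8%), against 3.99% of the 27025 genes with a window. The core was present in 2 of the 3 members higher in CH and in 7 of the 13 with a window among those lower in CH. The gamma-activated site stood in 10 of the 31 members (32.3%) against 9.55% of genes. The letters AGATAA, which the GATA factors of blood cells bind, stood in 6 (19.4%) against 12.7% of genes, and among these 6 were Isg20 and Oas3. In Isg20 the letters stood in the window of the last of its 3 starts, not in the one printed. The motifs were searched on both strands, and a match describes the letters, not binding.

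Each deposited value is a linear signal, and the arrays had been brought to 1 common mean of 150.0 once the extreme values were trimmed. Signals were taken as log2(signal + 16), so that changes of dim probe sets are understated, and limma was fitted to all 12 arrays and all probe sets. A gene was called where it changed 2-fold or more with p under 0.05 after Benjamini-Hochberg adjustment over all probe sets. The number of arrays limits the precision, and no detection call or background value was used here. CH against NX and REC against NX share the NX arrays, and each shares its other group with CH against REC.

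In CH, 3 of the 35 measured members were higher than in NX and 14 were lower. Oas3, Rsad2 and Isg20 were the 3 that were higher, by 3.85-fold to 8.57-fold. The 14 that were lower were spread over all roles, with RNA sensors, transcription factors and GTPases among them. Of all genes, 9.08% were called higher in CH than in NX, so that 3 of 35 (8.57%) was near the background, and 19.5% were called lower, against 14 of 35 (40%). The median log2 change of the members was -0.84 and that of all genes was 0.05. The 4 CH arrays did not overlap with the 4 NX arrays in any of these 17 members. The calls themselves favour genes without overlap, and the share without overlap among all called genes was not computed. The count of higher members was 6 without NX replicate 2 and 7 without CH replicate 1. With quantile normalization 3 members were again higher, but these were Oas3, Oasl2 and Eif2ak2, and with scaling to the hybridization controls 1 was higher and 22 lower.

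In REC, 1 member was higher than in NX, Bst2, and 3 were lower, Rsad2, Oas3 and Isg20. Of all genes, 2.5% were called higher and 1.79% lower in this comparison. The median log2 change of the members was 0.00, and that of all genes was -0.02. Between CH and REC, 9 members were higher in CH and 17 lower, with backgrounds of 12.3% and 23.3% of all genes. The 9 were Oas3, Rsad2, Isg20, Irf7, Ifit1, Sp100, Oasl2, Ifih1 and Eif2ak2, and Gbp3, Tap1, Irf9 and Ifi35 led the 17. The 9 came to 5 with median centring and to 3 with scaling to the hybridization controls, which raised the 17 to 26.

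**Figure D1:**
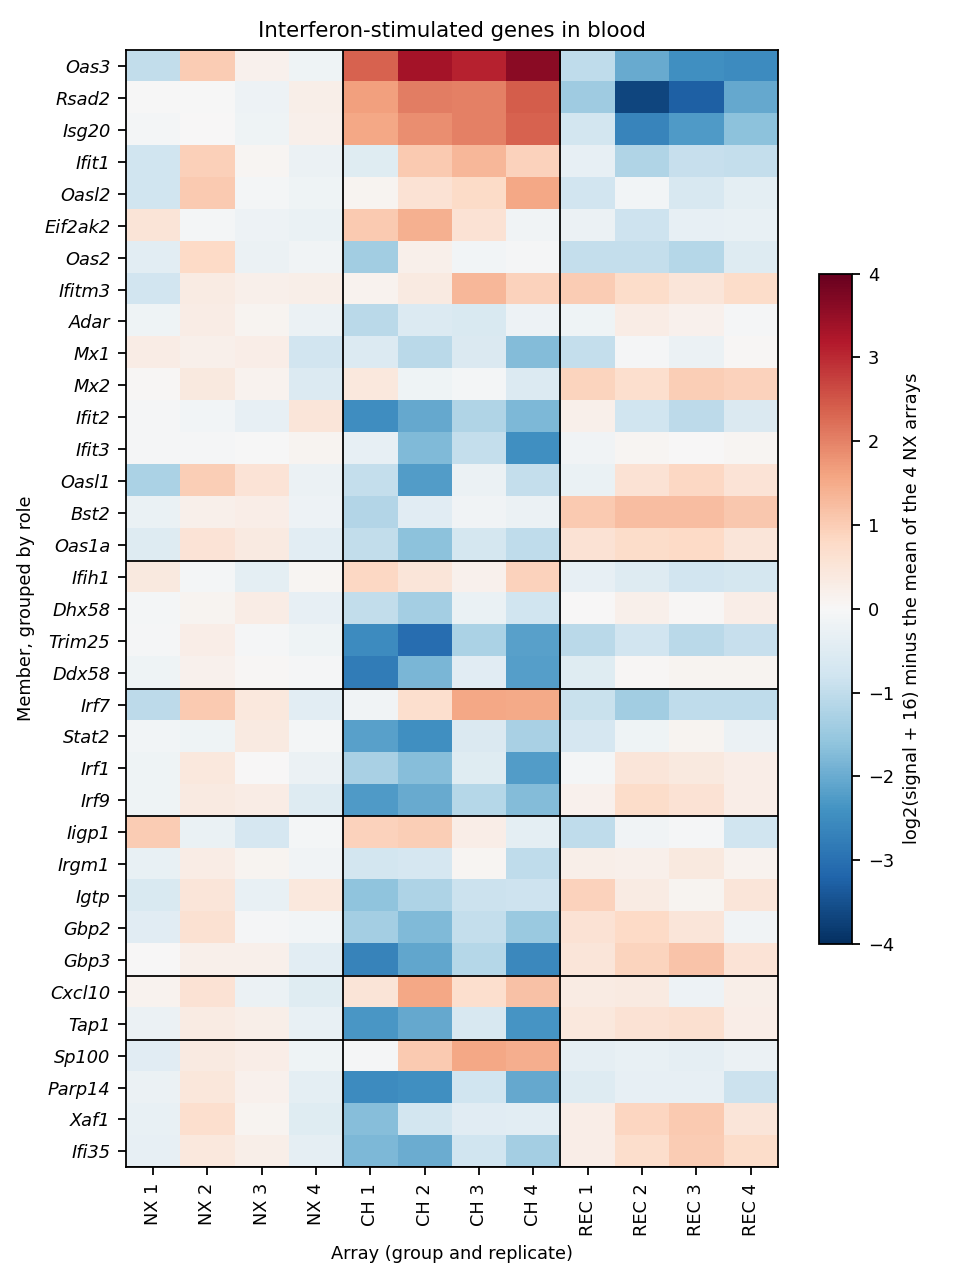
Heat map of the 35 measured members (rows, grouped by role with lines between the roles) on the 12 arrays (columns). Colour gives log2(signal + 16) minus the mean of the 4 NX arrays of that gene. Oas3, Rsad2 and Isg20 are red on the 4 CH arrays and blue on the 4 REC arrays, and Trim25, Gbp3, Irf9 and Tap1 are blue on the CH arrays.

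By the brightest probe sets, Rsad2 had the second largest increase of the 35 members in CH and the largest decrease in REC. Its signals were 10799, 10742, 9605 and 12898 on the NX arrays, 34206, 45146, 43879 and 58415 on the CH arrays, and 4119, 847, 1116 and 2643 on the REC arrays. The 3 groups did not overlap, and each REC array lay below each NX array. Rsad2 was 4.07-fold higher in CH than in NX (log2 change 2.03 ± 0.41 SE, limma adjusted p = 0.00184), 6.06-fold lower in REC than in NX (adjusted p = 0.00285) and 24.7-fold higher in CH than in REC (adjusted p = 1.03e-06).

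The other probe sets of Rsad2 moved the same way. The second of the 3 in brightness rose by 2.11 on the log2 scale in CH and fell by 2.66 in REC. The dimmest one had signals of 1009, 3093, 2071 and 1765 in NX, of 9324, 18676, 19312 and 25727 in CH, and of 172, 37.0, 44.3 and 67.8 in REC. It was the probe set with the widest spread between groups, with log2 changes of 3.21 (adjusted p = 0.000115) in CH and -4.46 (adjusted p = 0.000267) in REC. The call in CH depended on the scaling of the arrays: for the brightest probe set the log2 change was 0.20 with quantile normalization (adjusted p = 0.796) and 0.41 with scaling to the hybridization controls (adjusted p = 0.383). The second probe set lost its call in the same way, at 0.28 (adjusted p = 0.712) and 0.49 (adjusted p = 0.309), whereas the dimmest one kept its call under each alternative, with 1.60 as the lowest value. Over all probe sets, the median log2 change in CH was 0.11 as deposited and -0.71 with scaling to the hybridization controls.

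Isg20 and Oas3 likewise passed against NX in both groups, upward in CH and downward in REC. The signals of Isg20 were 12413, 13146, 11671 and 15091 in NX, 38103, 47140.4, 52477 and 66818 in CH, and 7899, 2060, 2699 and 4178 in REC. All 4 CH arrays lay above and all 4 REC arrays below the NX arrays. Isg20 was 3.85-fold higher in CH (log2 change 1.94 ± 0.35 SE, adjusted p = 0.00092) and 3.53-fold lower in REC (adjusted p = 0.00947) than in NX. Its log2 change in CH was 0.13 with quantile normalization (adjusted p = 0.839) and 0.33 with scaling to the hybridization controls (adjusted p = 0.438).

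Oas3 had the largest increase in CH among the brightest probe sets of the members. Its signals were 439, 1800, 992 and 780 in NX, 4629, 9136, 7675 and 10932 in CH, and 431, 209, 150 and 140.1 in REC. The groups did not overlap, although the highest REC array and the lowest NX array were close, at 431 and 439. Oas3 was 8.57-fold higher in CH (log2 change 3.10 ± 0.43 SE, adjusted p = 0.000138) and 3.99-fold lower in REC (adjusted p = 0.0166) than in NX. The call in CH held with quantile normalization, at 2.31, and with scaling to the hybridization controls, at 1.49. The call in REC was lost with that last scaling (-1.24, adjusted p = 0.0746), with a pseudocount of 1 (adjusted p = 0.054) and without moderation of the variances (adjusted p = 0.0598). It was also lost without NX replicate 2, NX replicate 3, REC replicate 2, REC replicate 3 or REC replicate 4, with log2 changes from -1.66 to -1.99 and adjusted p from 0.0502 to 0.0652.

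**Figure D2:**
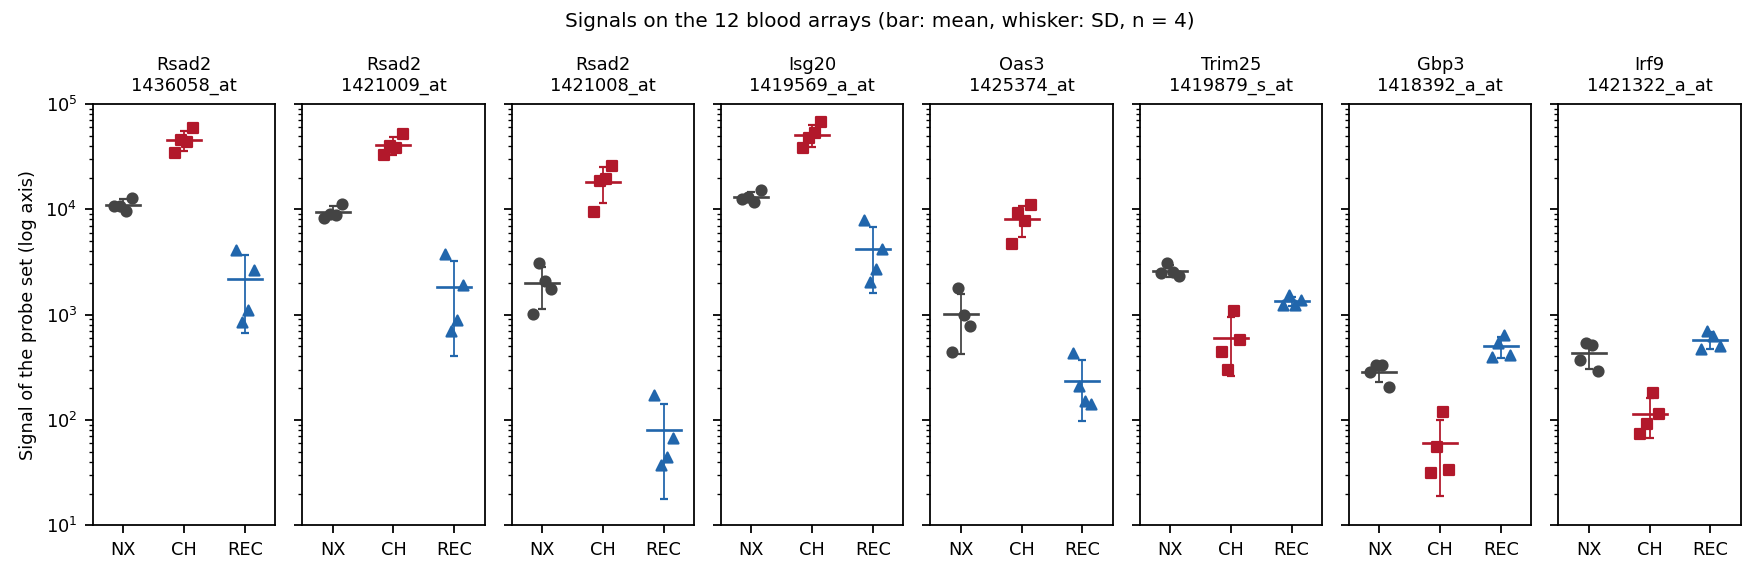
Signals of 8 probe sets on the 12 arrays (log axis), 1 point per mouse, with the group mean as a bar and the SD as a whisker (n = 4). The 3 probe sets of Rsad2 and those of Isg20 and Oas3 run from high in CH to low in REC, and those of Trim25, Gbp3 and Irf9 have their lowest group in CH.

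The median of the other members did not move with Rsad2. With each gene set to its NX mean, Rsad2 lay 2.35 to 3.22 log2 units above the median of the other 34 members on the CH arrays and 1.25 to 3.79 below it on the REC arrays. On the NX arrays the difference ran from -0.37 to 0.45. The median log2 change of the other members was -0.84 in CH and 0.03 in REC. With quantile normalization the mean difference between Rsad2 and the rest in CH against NX was 0.80 in place of 2.79. These are descriptions with no test, since Rsad2 was singled out with earlier results of these data known.

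The gene next to Rsad2 is Cmpk2, which encodes a mitochondrial nucleotide kinase whose product can feed the reaction of viperin. Rsad2 lies at chr12:26442743-26456452 and Cmpk2 at chr12:26469117-26479837 (GRCm38.p6), with 12664 bases and no other protein-coding gene of the table between them. The brighter probe set of Cmpk2 had a log2 change of 0.07 in CH (adjusted p = 0.907) and 0.23 in REC (adjusted p = 0.822). The dimmer one had signals of 36.6, 72.8, 71.6 and 32.2 in NX, 67.3, 254, 301 and 226 in CH, and 27.4, 63.9, 37.4 and 31.8 in REC. It was called higher in CH, by 1.61 on the log2 scale (adjusted p = 0.00645), with CH replicate 1 inside the range of NX, and its log2 change in REC was -0.29 (adjusted p = 0.783). The pair of probe sets thus disagreed on whether Cmpk2 rose in CH.

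The genes whose 12 values were most like those of Rsad2 were not members of the list. The distance was Euclidean over the 12 arrays, with each gene set to its own mean over all 12. The nearest of 18159 other genes were Apol11b at 0.51, Psme3 at 0.53, Ncoa4 at 0.57, Slc25a37 at 0.59 and Gda at 0.65. Psme3 encodes a proteasome activator, Ncoa4 carries ferritin to autophagy, Slc25a37 brings iron into mitochondria, and Gda is guanine deaminase. Isg20, the nearest member, stood at 1.45, which placed it 30th among these genes, Oas3 at 2.69 and the next member, Irf7, at 4.54. The median distance of the other genes was 6.99.

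Markers of erythroid cells moved with Rsad2. The summed signal of the 6 measured of 10 listed erythroid markers was 21376 to 32575 in NX, 105426 to 166457 in CH and 4911 to 15177 in REC, with 5 of the 6 higher in CH (beside 9.08% of all genes) and 4 of the 6 lower in REC (beside 1.79%) than in NX. Within each of the 3 groups, the brightest probe set of Rsad2 ordered the 4 arrays in the same way as this sum did; both were lowest on NX replicate 3, CH replicate 1 and REC replicate 2, and highest on NX replicate 4, CH replicate 4 and REC replicate 1. The 2 other probe sets of Rsad2 had that order in 2 groups and in 1 group, REC being common to both. By their brightest probe sets, no other member had it in all 3 groups; 6 members, Isg20 and Oas3 among them, had it in 1 group and 28 in none. The arrays share their scaling, and the part of these cells in the values of Rsad2 was not tested. In bulk blood, more cells of a type and more RNA per cell cannot be told apart.

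The antiviral effectors were divided. Of the 16 measured, Rsad2, Isg20 and Oas3 were higher in CH than in NX, and Ifit2, Ifit3 and Oas1a were lower. Each 3 of 16 came to 18.8%, beside 9.08% of all genes called higher and 19.5% called lower. The lower share was thus near the background. Ifit2 and Ifit3 encode proteins with tetratricopeptide repeats that bind viral RNA or each other. The signals of Ifit2 were 512, 489, 419 and 750 in NX and 82.4, 117, 222 and 143 in CH, and 612, 300, 246 and 349 in REC. Each CH array lay below each NX and each REC array, and the log2 change in CH was -1.87 ± 0.33 SE (adjusted p = 0.000753).

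Ifit1, of the same family, went the other way between CH and REC. Its signals were 181, 650, 344 and 276 in NX, 228, 699, 845 and 628 in CH, and 255, 131, 166 and 160.2 in REC. The log2 change was 1.56 between CH and REC (adjusted p = 0.00965), although CH replicate 1 lay within the range of REC, and 0.70 between CH and NX (adjusted p = 0.237). With scaling to the hybridization controls, which set the median of all probe sets between CH and REC to -1.13, the change of Ifit1 was -0.74. The oligoadenylate synthetase family was divided as well, with Oas3 higher and Oas1a lower in CH than in NX, Oasl2 higher and Oasl1 lower in CH than in REC, and no call for Oas2. The call of Oas1a was lost with quantile normalization and without NX replicate 2, NX replicate 3 or CH replicate 2. The call of Oasl1 was lost without moderation and without CH replicate 2, REC replicate 2, REC replicate 3 or REC replicate 4, and that of Oasl2 with median centring or scaling to the hybridization controls and without CH replicate 4, REC replicate 1 or REC replicate 3.

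Bst2, which encodes tetherin, a protein that holds budding virus on the cell, was the member that rose in REC. Its signals were 156, 221, 228 and 162 in NX, 74.3, 134, 172 and 160 in CH, and 410.2, 462, 471 and 417 in REC. All 4 REC arrays lay above every other array. The log2 change from NX was 1.15 ± 0.26 SE (adjusted p = 0.0209). The call was lost with quantile normalization (adjusted p = 0.0799) and with a pseudocount of 1 (adjusted p = 0.0818), and without NX replicate 1, NX replicate 4, REC replicate 2 or REC replicate 3, with log2 changes from 1.07 to 1.13 and adjusted p from 0.0693 to 0.0725.

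Eif2ak2, the kinase PKR that halts translation when it binds double-stranded RNA, was higher in CH than in REC, with a log2 change of 1.15 in its brightest probe set (adjusted p = 0.0117) and of 0.56 and 0.36 with no call in its 2 others. That call was lost with median centring, with scaling to the hybridization controls, with the mean of its probe sets and without CH replicate 2. By their brightest probe sets, the other effectors passed in no comparison. Mx1 and Mx2, dynamin-like GTPases that trap viral nucleocapsids, had log2 changes of -0.98 and -0.09 in CH, and Mx2 was dim throughout, with signals of 2.0 to 36.2. Ifitm3, which blocks viral fusion, had 0.69 in CH and 0.74 in REC, and Adar, an RNA-editing enzyme, had -0.61 in CH. A dimmer probe set of Adar was called lower in REC than in NX, at -1.07 (adjusted p = 0.0253). The brightest had 0.06 there (adjusted p = 0.945), so that the probe sets of Adar disagreed.

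Among the 4 RNA sensors and their partner, Trim25 and Ddx58 were lower in CH than in NX (50%, beside 19.5% of all genes). Ddx58 encodes RIG-I, and Trim25 the ubiquitin ligase known for activating it. The signals of Trim25 were 2507, 3100.2, 2548 and 2323 in NX, 443, 299, 1080.2 and 571 in CH, and 1236, 1520, 1229 and 1380 in REC. CH was lowest, REC lay between and no array of one group reached another group. The log2 change of -2.25 ± 0.32 SE in CH was the largest decrease of a member (4.74-fold, adjusted p = 0.000153), and that in REC was -0.96 (adjusted p = 0.107).

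Ddx58 had signals of 186, 240.2, 222 and 205 in NX and of 16.7, 47.8, 153 and 34.1 in CH, and its log2 change was -1.82 (adjusted p = 0.00286). A second probe set of Ddx58 fell as well, by 1.17 on the log2 scale, and the dimmest had a change of 0.48 (adjusted p = 0.301), so that the call was lost with the mean of the 3. Ifih1, which encodes the sensor MDA5, was higher in CH than in REC by 1.18 (adjusted p = 0.00214), a call that was lost with median centring and with scaling to the hybridization controls. Dhx58, which encodes LGP2, had a log2 change of -0.85 in CH against NX, past the limit on p (adjusted p = 0.0227) but short of 2-fold.

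Of the 4 transcription factors, Irf1, Irf9 and Stat2 were lower in CH than in NX (75%, beside 19.5% of all genes). Irf9 and Stat2 are partners in the complex that binds the response element. The signals of Irf9 were 367, 540, 513 and 288 in NX, 73.0, 91.1, 180.1 and 113 in CH, and 469, 696, 629 and 501 in REC. The CH arrays lay below all others, and the log2 change was -1.79 ± 0.29 SE against NX (adjusted p = 0.000444) and -2.23 against REC (adjusted p = 4.4e-05). Stat2 fell by 1.62 and Irf1 by 1.43 on the log2 scale against NX. The other probe set of Stat2 had a change of -0.49 (adjusted p = 0.16). With the mean of the pair the call of Stat2 against NX was kept and that against REC was lost.

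Irf7, which drives interferon alpha genes, was not called against NX. Its signals were 258, 1163, 755 and 410.2 in NX, 505, 895, 1635 and 1629 in CH, and 293, 203, 268 and 269 in REC. CH and NX overlapped, and CH and REC did not. The log2 change was 0.90 against NX (adjusted p = 0.15) and 1.97 between CH and REC (adjusted p = 0.00309), but -0.38 between CH and REC with scaling to the hybridization controls.

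The GTPases that attack vacuoles of intracellular microbes fell in CH against NX in 3 of 5 cases (60%, beside 19.5% of all genes). The signals of Gbp3 were 287, 329, 328 and 205 in NX, 31.4, 54.7, 119 and 33.7 in CH, and 399, 540, 637 and 416 in REC. CH was far below both other groups, with a log2 change of -2.12 ± 0.33 SE against NX (4.34-fold lower, adjusted p = 0.000289) and -2.87 against REC (7.33-fold lower, adjusted p = 1.18e-05), and no member fell further against REC. Gbp2 fell by 1.39 and Igtp by 1.14 on the log2 scale against NX, whereas Irgm1 and Iigp1 had changes of -0.59 and 0.44 that did not pass. The call of Igtp was lost with quantile normalization and without NX replicate 2, NX replicate 4 or CH replicate 1.

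Tap1, a subunit of the transporter that loads peptides for MHC class I, was lower in CH. Its brightest probe set had signals of 535, 800, 751 and 512 in NX, 113, 142, 400 and 111 in CH, and 850, 969, 996 and 764 in REC. The CH arrays lay below all others, and the log2 change was -1.85 ± 0.34 SE against NX (adjusted p = 0.00109). The 3 other probe sets of Tap1 were dim and had changes of 0.10 to 1.13 with no call, so that the mean over its probe sets was -0.03. Cxcl10, a chemokine for activated T cells, was dim, at 12.5 to 99.4, with a log2 change of 0.98 (adjusted p = 0.022), short of 2-fold.

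Of the 4 other members, Parp14 and Ifi35 were lower in CH than in NX (50%, beside 19.5% of all genes). Parp14, an ADP-ribosyltransferase, had signals of 665, 1067, 881 and 594 in NX, 123, 128, 442 and 176 in CH, and 538, 623, 623 and 424 in REC. Its log2 change in CH was -1.96 ± 0.35 SE (adjusted p = 0.000872). The other probe set of Parp14 had a change of -0.33 (adjusted p = 0.476). With the mean of the pair the call against NX was kept and that against REC was lost. The brightest probe set of Ifi35 fell by 1.49 on the log2 scale (adjusted p = 0.00197), whereas another of its 3 probe sets was called the other way, at 1.36 (adjusted p = 0.00115). It was the single member whose probe sets had opposite calls, and with the mean of its probe sets it was not called against NX. Xaf1 was lower in CH than in REC by 1.50 (adjusted p = 0.00301), and Sp100, a nuclear body protein, was higher by 1.31 (adjusted p = 0.00634). The other probe set of Xaf1 had a change of -0.01 (adjusted p = 0.976), and the call of Xaf1 was lost with the mean of the pair, and that of Sp100 with quantile normalization, median centring and scaling to the hybridization controls. Against NX, the brightest probe set of Sp100 had a log2 change of 1.00 (adjusted p = 0.0337), just short of 2-fold. Its other probe set was called higher in CH than in NX, at 1.165 (adjusted p = 0.0327), with overlap between the groups. With the mean of the pair Sp100 was also called higher.

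**Figure D3:**
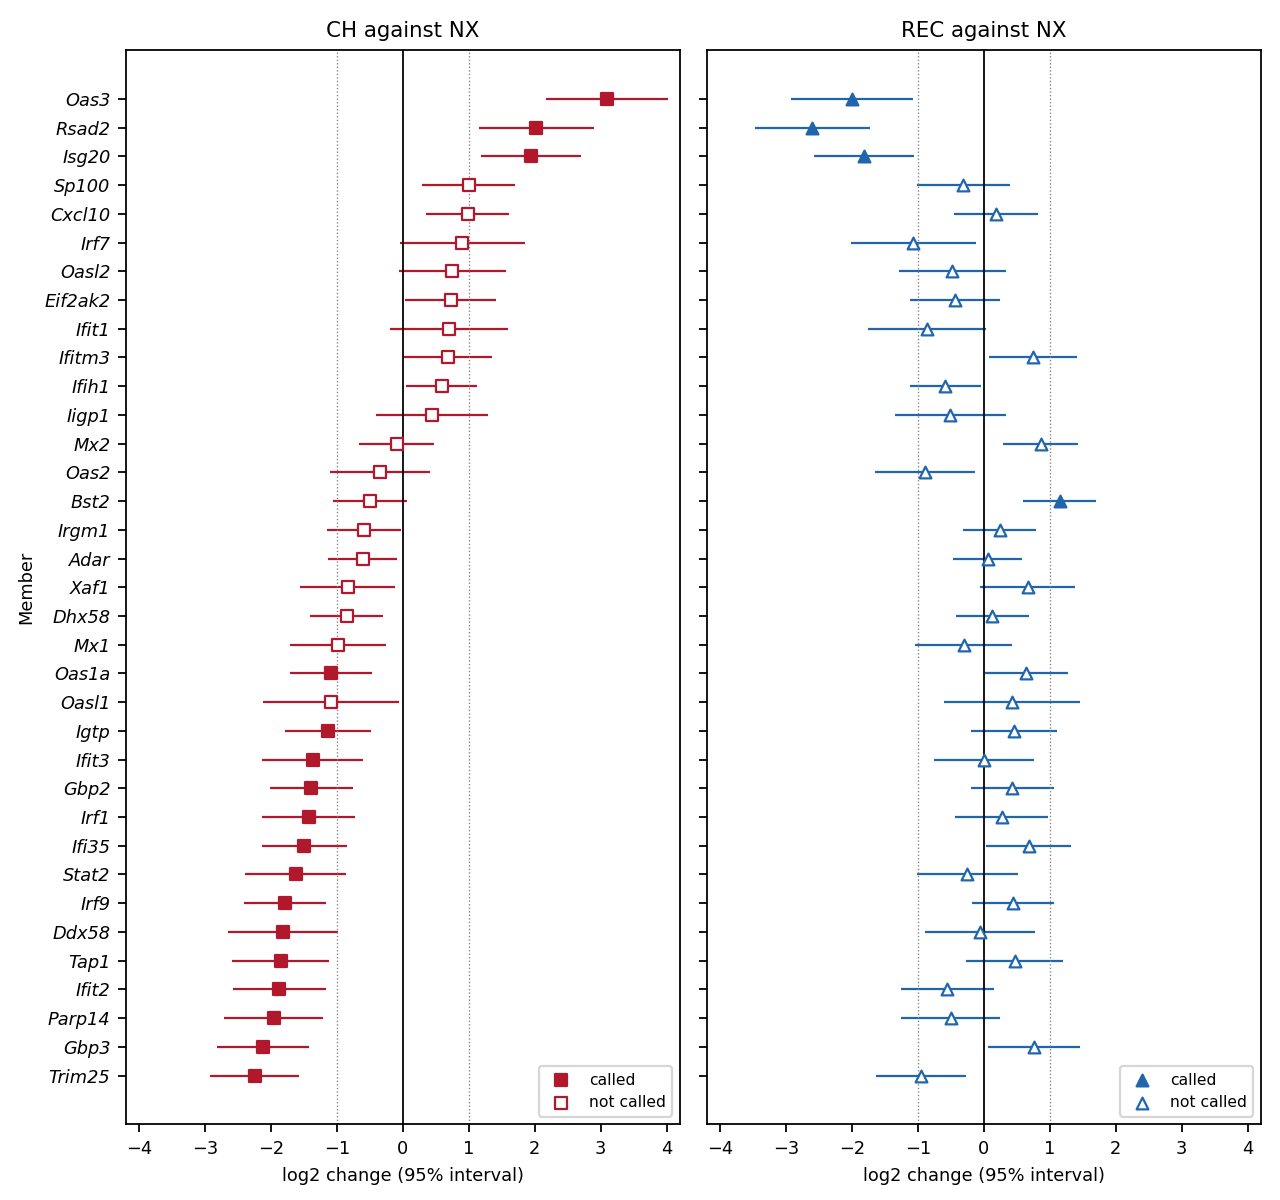
log2 changes of the 35 members in CH (left) and REC (right) against NX with 95% intervals from limma, ordered by the change in CH, with dotted lines at 2-fold. Filled symbols were called: 17 members in CH and 4 in REC. Oas3, Rsad2 and Isg20 lie at the top in CH and on the left in REC.

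In CH replicate 3 the fall of these members was smallest. Of the 14 members lower in CH, 12 had their highest CH signal in this array. The same array had the highest lymphocyte marker sums of the group: the 9 measured B cell markers summed to 13812, against 2963 to 6348 on the other CH arrays and 21064 to 26026 in NX, and the 9 T cell markers to 4424, against 1151 to 1413 and 4893 to 6780. Its monocyte marker sum was the highest of the group as well, at 11698, against 3468, 3750 and 4630 on the other CH arrays and 7284 to 11434 in NX. So were its NK cell and plasmacytoid dendritic cell sums, at 2956 and 3076. The erythroid, neutrophil and platelet sums were each highest on another CH array. Of these lists, 8 of 9 B cell markers and 8 of 9 T cell markers were lower in CH than in NX, as were 5 of 9 NK cell markers and 4 of 7 markers of plasmacytoid dendritic cells, while 1 of the 9 NK cell markers was higher. Among all genes, 19.5% were called lower and 9.08% higher in that comparison. With limma, 0 of 9 neutrophil markers and 0 of 8 platelet markers were called in CH against NX (also 0 of each at an unadjusted p under 0.05 and without moderation), and 1 of 8 monocyte markers was lower. Without CH replicate 3, 16 members were lower in CH and 4 higher. In REC, 5 of 9 NK cell markers were higher than in NX, beside 2.5% of all genes. The order of the 4 arrays within each group was also set beside the B cell and T cell sums, by the members' brightest probe sets. The order of the B cell sum was met by 26 members in 0 groups, 8 in 1 group and Parp14 in 2. That of the T cell sum was met by 21 members in 0 groups, 13 in 1 group and Oasl1 in 2. The part of these cells in the members' values was not tested.

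**Figure D4:**
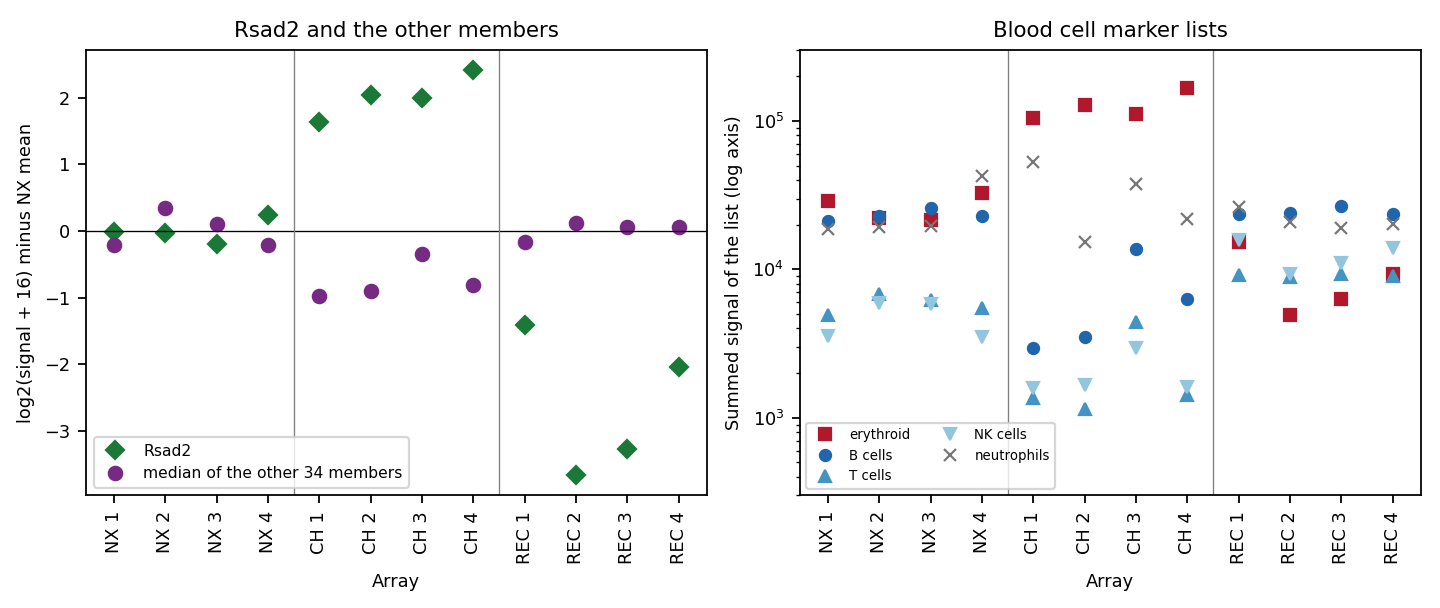
Left, Rsad2 and the median of the other 34 members on each of the 12 arrays, as log2(signal + 16) minus the NX mean. Right, summed signal of 5 lists of blood cell markers on each array (log axis). Rsad2 and the erythroid sum are highest on the 4 CH arrays and lowest on the 4 REC arrays, and the B cell and T cell sums are lowest on CH replicates 1, 2 and 4.

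Other array values also differed between the groups. For actin, the signal of the 3′ probe set over that of the 5′ one, which rises as RNA is degraded, was 1.61 to 1.86 in NX, 1.91 to 2.11 in CH and 1.54 to 1.73 in REC. The mean log2 signal of the 18 hybridization controls, which are added to each sample, was 12.3 to 13.1 in NX, 14.0 to 14.6 in CH and 11.6 to 12.2 in REC. Their part in the members' values was not tested.

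The pathway upstream of these genes was measured through 37 of 40 listed genes that are no members; the other 3 were not analysed here. In CH against NX, 2 were higher and 12 lower, and between CH and REC, 2 were higher and 18 lower. The shares called were 5.41% higher and 32.4% lower in CH against NX, beside 9.08% and 19.5% of all genes, and 5.41% and 48.6% in CH against REC, beside 12.3% and 23.3%. With scaling to the hybridization controls the counts were 0 and 25 in CH against NX and 0 and 31 in CH against REC. The ligands showed no call in CH: Ifnb1 had a log2 change of 0.41 (adjusted p = 0.338) and Ifng of -0.13 (adjusted p = 0.812). Ifng, the interferon of T and NK cells, was listed at 12.8 to 30.4 in NX and at 43.7 to 141 in REC, and rose by 1.48 on the log2 scale in REC (adjusted p = 0.0232). No array of REC reached down to NX, and the REC calls of Tlr7, an endosomal RNA receptor, at 1.46, and of Zbp1, a sensor of Z-form nucleic acid, at 1.38, completed the 3 genes higher there. Another probe set of Tlr7 was also called, at 1.45 (adjusted p = 0.0356), and its last had 0.12 (adjusted p = 0.907). The other probe set of Zbp1 had 0.39 (adjusted p = 0.697), so that for both genes the probe sets disagreed. The 3 higher genes came to 8.11% of the 37 pathway genes, beside 2.5% of all genes called higher in REC against NX. With limma 0 pathway genes were lower in REC than in NX (1 at an unadjusted p under 0.05, and 0 without moderation of the variances), beside 1.79% of all genes. The count of higher genes in REC was 0 without moderation and also without NX replicate 1 or NX replicate 4, and it was 1 without any single REC array.

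Of the receptors, Ifnar2 was higher in CH through its brightest probe set, with signals of 75.2, 125, 150 and 139 in NX and 468, 642, 307 and 856 in CH, and a log2 change of 2.02 (adjusted p = 0.000274). Its 2 other probe sets had changes of -0.97 and -0.93, past the limit on p but short of 2-fold, so that its probe sets disagreed. Mavs, the adaptor of RIG-I and MDA5, rose by 1.27 on the log2 scale (adjusted p = 0.0127), with overlap between CH and NX. Without CH replicate 4, 1 pathway gene was higher in CH.

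The genes lower in CH were signal carriers, transcription factors, genes of nucleic acid sensing, inhibitors of the pathway and 1 receptor gene. Irf8, a factor of monocytes, dendritic cells and B cells, was lowest, at 58.1, 118, 411 and 153 in CH against 602 to 930.0 in NX, with a log2 change of -2.22 (adjusted p = 0.000959). Ptpn6, a phosphatase that restrains receptor signalling in leukocytes, followed at -2.15, Stat3 at -1.86, Pias1 at -1.74, the kinase Tbk1 at -1.72 and Irf3 at -1.56. The other 6, also by their brightest probe sets, were Ptpn2, Irf2, Zbp1, Tyk2, Sting1 and Ifngr2. The other probe set of Tyk2 had 0.78 (adjusted p = 0.0461), short of 2-fold. Between CH and REC it was called higher at 1.38 (adjusted p = 0.00125), and the brightest lower at -1.42. The other probe set of Ifngr2 had 0.02 (adjusted p = 0.97), and those of Stat3 had -0.55, -0.33 and 0.56 with no call. Ptpn2, Pias1 and Irf3 each had at least 1 further probe set called lower and at least 1 that was not called. Usp18, a feedback inhibitor that interferon induces, changed by 0.35 (CH) and 0.49 (REC) on the log2 scale, with no call.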

How the data were processed

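The authors extracted whole blood RNA, hybridized it to Affymetrix Mouse 430 2.0 arrays and deposited 1 intensity per probe set and array on a linear scale, scaled so that the mean without the lowest and highest 2% was 150.0. The median signal was 32.9 to 59.9 per array. The program that summarised these values is not stated in the labels or methods used here, and these differ on the labelling kit. The study's methods give 4 animals per group and a legend gives 5. All 12 arrays were used.

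Of the 45101 probe sets, 34958 named 1 gene (34754 matched by gene number), 932 several and 9211 none. log2(signal + 16) was fitted in R 4.3.3 by limma 3.58.1, with lmFit and eBayes and 9 residual degrees of freedom, with Benjamini-Hochberg adjustment over all probe sets, and tested on simulated data. The study named GC-RMA and an analysis of variance for its own tests. The named genes were the 5 largest calls in each direction. Promoters came from RefSeq (GRCm38.p6). Figures used Python 3.11.15 and matplotlib 3.10.9. The members and all lists were chosen with earlier results of these data known. Alternatives were other scalings, pseudocounts, probe set rules, priors and thresholds, a replicate block and leaving out each array.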

Additional observations from a re-analysis of the deposited data

Results flagged for a closer look

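Single arrays stood apart from the other 3 of their group in 3 of 111 groups of 4 examined, by the gap to the nearest array over the range of the group. Chance gives such a gap in about 1 in 20 groups. Mx1 was at 114 on NX replicate 4, Ifitm3 at 1662 on NX replicate 1, and Ddx58 at 146 on REC replicate 1.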

How the results depend on the processing

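The 28 values of named members were recomputed 638 times; 612 kept their direction and side of the threshold, 24 lost the call and 2 reversed. Scaling to the hybridization controls gave 1 higher and 22 lower members in CH against NX, 12 higher in REC against NX, and 3 higher and 26 lower in CH against REC; it reversed Irf7 (-0.38) and Ifit1 (-0.74) there, and gave pathway counts of 0 and 25, 13, and 0 and 31. It moved the median of all probe sets to -0.71, 0.40 and -1.13. Median centring gave 5 members higher in CH against REC and 1 pathway gene higher in CH against either group. Quantile normalization gave 2 members higher in REC, and Rsad2 minus the rest of 0.80 in CH against NX and 3.85 in CH against REC. With no fold limit 5 members were higher in CH against NX. A pseudocount of 1 gave 0 members and 0 pathway genes higher in REC, as did an adjusted p under 0.01, which left 1 pathway gene higher in CH against NX and against REC; without moderation 0 pathway genes were higher in REC. The cause was not tested. Leaving out 1 array gave 3 to 7 higher and 12 to 16 lower members in CH against NX, 0 to 1 and 2 to 3 in REC against NX, and 8 to 9 and 16 to 19 in CH against REC. For pathway genes it gave 1 to 2 and 11 to 15, 0 to 3 and 0, and 1 to 2 and 16 to 18; the fewest were without CH replicate 4 (1 higher in CH), NX replicate 1 or NX replicate 4 (0 in REC), and 1 in REC without any REC replicate. Rsad2 minus the rest ran from 2.65 to 2.94, from -3.07 to -2.22 and from 5.01 to 5.86.

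With the replicate number as a block the member counts stayed 3 and 14, 1 and 3, and 9 and 17. The titles state no pairing beyond the number. Deviations of same-numbered CH and NX arrays from their group means had correlations of -0.20 to 0.44, the highest at replicate 1. The signal over background is unknown, which limits dim members such as Mx2.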
